A study of Homo sapiens with 30 samples.

Results

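TP53I3, TIGAR, FDXR, SESN1, ALDH4A1 and ABHD4 are genes with roles in metabolism or redox control that have been reported as targets of the transcription factor p53. They were chosen as a list of 6 genes with earlier results of these data known, as were the further gene lists below. Their counts beside the share of all probes are therefore descriptions. Every probe annotated to the 6 genes was followed across all 30 arrays. 5 of the 6 genes had a probe, 7 probes in all of the 22177 on the array: 2 for TP53I3, 2 for ALDH4A1 and 1 each for TIGAR, SESN1 and ABHD4. FDXR is not analysed here. All 7 passed the detection filter, which asked for a detection p under 0.01 on every array of some group, as did 12896 probes in all.

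The arrays measured RNA of HCT116, an established colon cancer cell line, in an isogenic p53 knockout form (p53KO) and a wild-type form (WT). Within each genotype, 16-hour exposures were to actinomycin D at 1, 10 or 100 nM or to nutlin-3 at 4 µM, beside untreated cells, which gives 10 groups of 3 arrays. Actinomycin D binds DNA and blocks transcription, first that of ribosomal RNA. Nutlin-3 keeps the inhibitor MDM2 from p53. All groups shared the same medium and an overnight seeding, and whether the 3 arrays of a group stand for separate cultures is not stated in the labels, so the p-values rest on a spread between arrays that may be technical only.

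p53 accumulates when DNA or ribosome production is disturbed and switches on genes that halt division, repair DNA or kill the cell. A further set of its targets adjusts metabolism. TP53I3, also called PIG3, is a quinone oxidoreductase that has been tied to reactive oxygen species. TIGAR is a phosphatase that slows glycolysis and leaves more glucose for the pentose phosphate pathway, which makes NADPH. FDXR is the mitochondrial reductase that passes electrons to ferredoxin. SESN1 is a sestrin, a stress protein that restrains the growth kinase mTORC1. ALDH4A1 is the mitochondrial dehydrogenase of the last step of proline breakdown to glutamate. ABHD4 is a hydrolase that removes acyl chains from phospholipids on the way to N-acylethanolamines.

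p53 binds DNA through a pair of copies of a decamer motif. In RefSeq promoters of build GRCh38.p14 (250 bases before to 50 after each start site, 300 in length), exact p53 decamers were searched for at the 8 start sites of the 5 measured genes. The motif is its own reverse complement, so a single search covers both strands and no other motif was searched. SESN1 had 3 start sites and held a decamer at the third, with its first base at -49. ABHD4 held a decamer at its only start site, with its first base at -6. No exact decamer lay in the windows of TP53I3, TIGAR, ALDH4A1 or the other SESN1 sites. Of 34796 distinct promoters of this length, 2315 (6.65%) held at least 1. A match describes letters and not a bound site, and the lack of a match says nothing about p53 at these genes. The stretches from 200 bases before to 20 after the start are shown 5′ to 3′ in the direction of transcription, with the decamer in capitals, for both genes that held it and for TP53I3 and TIGAR, the 2 genes called at the lowest dose, in which no letters are marked. SESN1 is on the minus strand (chr6:109008969-109009188), ABHD4 on the plus strand (chr14:22598100-22598319), TP53I3 on the minus strand (chr2:24084815-24085034) and TIGAR on the plus strand (chr12:4321013-4321232).
SESN1 (start site with the decamer): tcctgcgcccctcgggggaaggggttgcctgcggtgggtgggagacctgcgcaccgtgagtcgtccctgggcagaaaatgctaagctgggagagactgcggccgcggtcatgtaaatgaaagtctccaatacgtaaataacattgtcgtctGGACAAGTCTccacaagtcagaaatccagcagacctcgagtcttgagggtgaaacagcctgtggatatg
ABHD4: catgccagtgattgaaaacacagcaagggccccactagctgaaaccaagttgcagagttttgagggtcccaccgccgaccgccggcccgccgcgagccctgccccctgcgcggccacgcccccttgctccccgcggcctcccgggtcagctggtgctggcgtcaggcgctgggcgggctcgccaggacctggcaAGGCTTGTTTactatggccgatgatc
TP53I3: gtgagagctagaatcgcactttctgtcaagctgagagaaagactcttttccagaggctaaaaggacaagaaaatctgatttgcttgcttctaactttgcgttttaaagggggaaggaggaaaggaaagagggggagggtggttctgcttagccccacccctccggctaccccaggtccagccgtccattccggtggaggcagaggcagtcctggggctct
TIGAR: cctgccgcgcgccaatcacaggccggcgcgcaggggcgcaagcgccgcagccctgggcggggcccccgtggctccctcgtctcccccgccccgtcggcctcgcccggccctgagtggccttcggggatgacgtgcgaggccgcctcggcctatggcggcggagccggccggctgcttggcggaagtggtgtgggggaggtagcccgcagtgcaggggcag

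The 6 arrays at 100 nM were dimmer than the others. Their raw 75th percentile was 100.7 to 134.8 intensity units with 10101 to 10690 probes detected, against 133.1 to 305.6 units and 11338 to 12629 probes on the other 24 arrays. The labels were compared with PROM1, a membrane glycoprotein gene chosen for its contrast between the genotypes after its values were seen. It had a log2 level of 4.21 to 4.97 on the 12 p53KO arrays without nutlin, against 8.13 to 8.95 on the 12 WT arrays. That split follows from the choice and is no separate check of those labels. The third nutlin arrays went against their labels, with PROM1 at 9.07 on the array labelled p53KO and 4.36 on the array labelled WT. The first untreated array of each genotype lay on a different slide from the other untreated arrays. Main values below keep all 30 arrays as labelled, and results are also given for the 26 arrays without these 4. The second WT arrays at 10 nM and at 100 nM also lay on a different slide from their group, but were kept. Without the first array the untreated WT mean was lower for TP53I3, TIGAR (7.81 to 7.53), SESN1 (7.50 to 7.11) and ABHD4. It was higher for both ALDH4A1 probes. For the genes with a lower mean, actinomycin D changes in WT cells are therefore higher on the 26 arrays. Their gap to the p53KO changes is also wider there. 5 of 5 epithelial markers passed the filter. Of the markers of other cell types, CD68 and COL1A1 passed it, and PTPRC, CD3E, COL3A1, PECAM1, VWF and HBB did not.

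Levels are log2 intensities after background correction and quantile normalisation. A level is compared between arrays for the same probe, never between probes. Whether the arrays of 2 groups overlap is given as a description, and the share of all probes without overlap was not counted. A change is the log2 difference between 2 group means, given with limma's moderated standard error (SE). Adjusted p-values come from limma, by the Benjamini-Hochberg method across 12896 probes, and a probe is called where its value is under 0.05. In such bulk RNA, fewer cells and less RNA per cell cannot be told apart.

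**Figure D1:**
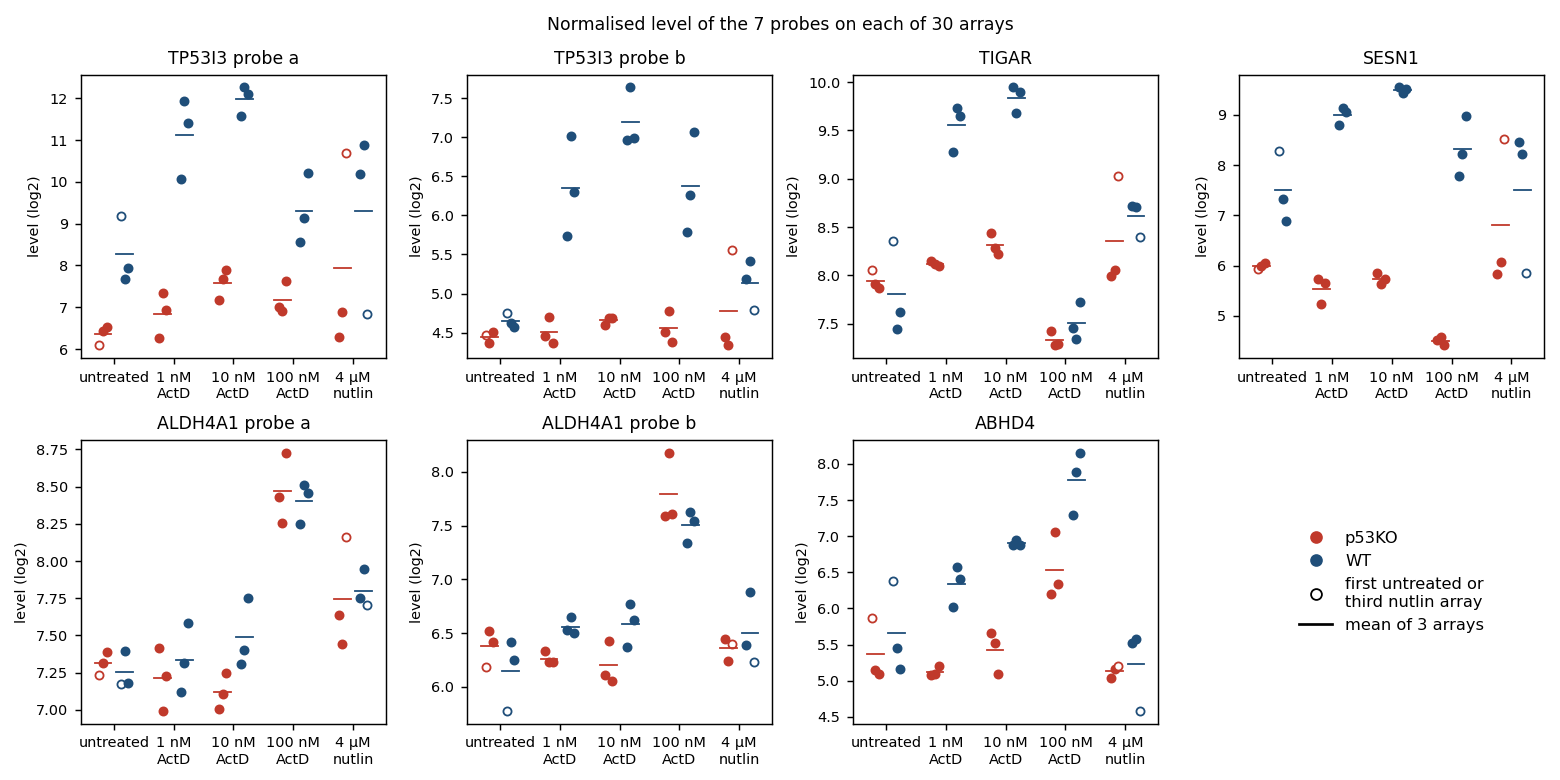
Log2 level of each of the 7 probes (y axis) by treatment (x axis, ActD for actinomycin D), with p53KO in red to the left of WT in blue. Points are single arrays, open points the first untreated and the third nutlin arrays, and lines the mean of 3 arrays. At 10 nM the WT points of TP53I3 probe a lie between 11.57 and 12.26 and the p53KO points between 7.17 and 7.88.

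In WT cells, 10 nM actinomycin D raised TP53I3, TIGAR, SESN1 and ABHD4 above untreated cells. TP53I3 rose most, by 3.71 ± 0.85 (SE) on the log2 scale on its brighter probe, a 13.1-fold change, followed by TIGAR and SESN1 at close to 4-fold and ABHD4 at 2.35-fold. Both ALDH4A1 probes stayed under the threshold. At 1 nM the same order of sizes was seen, and TP53I3 and TIGAR passed the test.

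For TP53I3, the oxidoreductase, the brighter probe (probe a) read 10.06, 11.93 and 11.40 on the WT arrays at 1 nM and 11.57, 12.26 and 12.11 at 10 nM, against 9.18, 7.68 and 7.94 on untreated WT arrays. The treated arrays did not overlap the untreated ones at either dose. The change was 2.86 ± 0.85 at 1 nM (adjusted p = 0.0338) and 3.71 ± 0.85 at 10 nM (adjusted p = 0.00172). The dimmer probe (probe b) was not detected on any untreated WT array and was detected on all WT arrays at both doses, with levels of 5.73, 7.02 and 6.30 at 1 nM and 6.96, 7.64 and 6.99 at 10 nM. Taking the lowest signal of a detected probe as the floor for the untreated arrays, probe b was at least 3.04-fold higher at 1 nM (adjusted p = 0.000842) and at least 5.46-fold higher at 10 nM (adjusted p = 1.48e-06). The 2 TP53I3 probes moved the same way. Probe b passed the filter only through WT groups under actinomycin D, where it is high. The filter therefore favours its calls as higher there, here and in the counts below.

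TIGAR, the sugar phosphatase, read 9.28, 9.73 and 9.65 at 1 nM and 9.95, 9.68 and 9.90 at 10 nM in WT cells, against 8.36, 7.44 and 7.62 untreated. Every treated array lay above every untreated one. It rose by 1.75 ± 0.22 at 1 nM (adjusted p = 1.13e-05) and by 2.03 ± 0.22 at 10 nM (adjusted p = 3.5e-07).

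SESN1, the sestrin, read 8.81, 9.13 and 9.06 at 1 nM and 9.55, 9.44 and 9.51 at 10 nM in WT cells, against 8.28, 7.33 and 6.89 untreated. The 10 nM arrays were close together, with an SD of 0.05, and the untreated ones spread widely, with an SD of 0.71 (n = 3 each). The change of 1.50 ± 0.53 at 1 nM was not called (adjusted p = 0.0798), and the rise of 2.00 ± 0.53 at 10 nM was (adjusted p = 0.00598). Over the 26 arrays the 1 nM change was 1.89 ± 0.22 and passed the threshold (adjusted p = 8.2e-06).

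ABHD4, the phospholipid hydrolase, read 6.03, 6.57 and 6.40 at 1 nM and 6.88, 6.95 and 6.87 at 10 nM in WT cells, against 6.38, 5.46 and 5.16 untreated. The first untreated array overlapped the 1 nM arrays and lay below all 10 nM arrays. ABHD4 rose by 1.24 ± 0.29 at 10 nM (adjusted p = 0.00237), and its difference of 0.67 ± 0.29 at 1 nM was not called (adjusted p = 0.163). ALDH4A1, the proline-breakdown enzyme, differed by 0.24 ± 0.17 on probe a and 0.44 ± 0.18 on probe b at 10 nM, with adjusted p = 0.315 and 0.0663, and its 1 nM differences were 0.09 and 0.41. With the replicate number as a block probe b at 10 nM passed the threshold (adjusted p = 0.0303).

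In WT cells 3 of the 7 probes were called at 1 nM, all higher, where 8.86% of all probes tested were called and 4.00% were higher. At 10 nM 5 of 7 were called, all higher, against 30% and 15.4%. The median change of the 7 was 1.50 at 1 nM and 2.00 at 10 nM, against 0.02 and 0.04 over all probes tested. Over the 26 arrays the counts were 5 at 1 nM and 5 at 10 nM, against 16.6% and 38.7% of all probes. No slide held both actinomycin D and untreated arrays (1 nM on slide 3, 10 and 100 nM on slides 1 and 5, untreated on slides 2 and 4), so in either genotype the slide and each dose cannot be told apart in comparisons with untreated cells. With the slide as a random block adjusted p was 0.399 for TP53I3 probe a, 0.136 for probe b and 0.0169 for TIGAR at 1 nM, and 0.0504 for SESN1 at 10 nM, where 4 of 7 were called. Without quantile normalisation TP53I3 probe a at 1 nM had adjusted p = 0.0634. Leaving out any of 4 single WT arrays (the second or the third at 1 nM, the second or the third untreated) also took TP53I3 probe a at 1 nM over the threshold, at adjusted p up to 0.184.

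From 1 to 10 nM in WT cells, 0 of 7 probes were called, where 5.72% of all probes were (limma, all arrays; 1 of 7 had an unadjusted p under 0.05). The differences were 0.85 ± 0.85 for TP53I3 probe a, 0.29 ± 0.22 for TIGAR, 0.50 ± 0.53 for SESN1 and 0.57 ± 0.29 for ABHD4. SESN1 and ABHD4 did not overlap between the doses, and TP53I3 and TIGAR did. TP53I3 probe b was called on the 26 arrays, at 0.85 ± 0.27 (adjusted p = 0.04), where 13.9% of all probes were. With the replicate block on the same arrays, which joins arrays of the same replicate number, 3 were called, TP53I3 probes a and b and ABHD4 (adjusted p = 0.0293, 0.015 and 0.0449). The share of all probes called with that block is not given. No slide held both 1 and 10 nM arrays, so the slide and this dose step cannot be told apart in either genotype. In p53KO cells 0 of 7 were called between these doses, where 4.56% of all probes were (limma; 0 of 7 had an unadjusted p under 0.05).

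**Figure D2:**
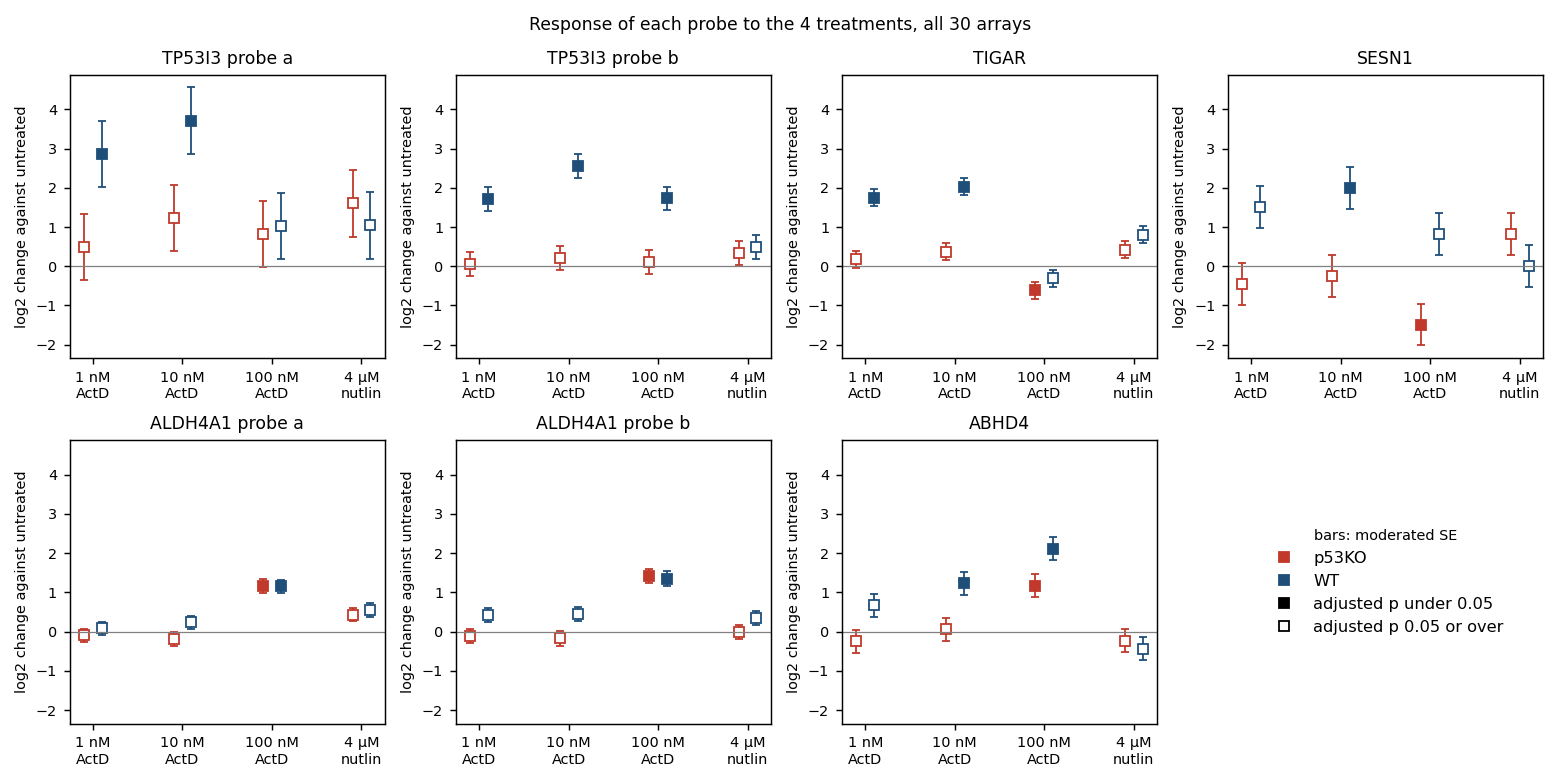
Log2 change against untreated cells of the same genotype (y axis) for each treatment (x axis), p53KO in red to the left of WT in blue, with bars for the moderated SE over all 30 arrays. Filled squares mark adjusted p under 0.05. At 1 and 10 nM all filled squares are WT, 3 and 5 in number.

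In p53KO cells the same doses gave no called change in any of the 7 probes with all arrays. Against untreated p53KO cells, 0 of 7 were called at 1 nM, where 0.682% of all probes were, and 0 of 7 at 10 nM, where 20.7% were (limma; 0 of 7 had an unadjusted p under 0.05 at either dose). The median change of the 7 was -0.10 at 1 nM and 0.06 at 10 nM. TP53I3 probe a read 6.26, 7.34 and 6.92 at 1 nM and 7.17, 7.68 and 7.88 at 10 nM in p53KO cells, against 6.09, 6.44 and 6.52 untreated. The 10 nM arrays lay above the untreated ones, but the difference of 1.23 ± 0.85 was not called (adjusted p = 0.336). On the 26 arrays with the replicate block it was called, at 1.29 ± 0.29 (adjusted p = 0.00295), as was TIGAR. TIGAR read 8.44, 8.28 and 8.22 at 10 nM, against 7.87 to 8.05 untreated, a difference of 0.37 ± 0.22 (adjusted p = 0.245). This TIGAR difference was, on the 26 arrays, 0.42 ± 0.13 and was called (adjusted p = 0.0228), 1 of 7 probes where 27.4% of all were, and without quantile normalisation it was 0.75 (adjusted p = 0.0255) while the median of all probes moved by 0.37. At 1 nM 0 of 7 were called on the 26 arrays, where 3.23% of all probes were (limma; 1 of 7 had an unadjusted p under 0.05). SESN1 and ABHD4 differed by -0.25 ± 0.53 and 0.06 ± 0.29 at 10 nM.

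Whether the genotypes responded differently was tested directly as the p53KO response minus the WT response. At 10 nM the responses of TP53I3 probe b and TIGAR were smaller in p53KO cells, with p53KO minus WT differences of -2.34 ± 0.43 and -1.66 ± 0.30 on the log2 scale (adjusted p = 0.011 each). These 2 of 7 calls, both lower, compare with 0.395% of all probes called and 0.240% lower. Of the groups in this test TP53I3 probe b was detected only in WT cells at 10 nM, so the size of its difference rests on readings near background. It passed the filter only through WT groups under actinomycin D, which favours this call. TP53I3 probe a, SESN1 and ABHD4 had differences of -2.48 ± 1.20, -2.26 ± 0.76 and -1.18 ± 0.41 that were not called (adjusted p = 0.559, 0.227 and 0.271). At 1 nM 0 of 7 were called, as 0 of all probes were (limma; 5 of 7 had an unadjusted p under 0.05), with values of -2.37 for TP53I3 probe a, -1.64 for probe b, -1.57 for TIGAR, -1.95 for SESN1 and -0.91 for ABHD4. ALDH4A1 differed by -0.18 and -0.52 at 1 nM and by -0.43 and -0.62 at 10 nM on its probes a and b.

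The calls at 10 nM depended on the scaling: without quantile normalisation TIGAR was at -1.32 (adjusted p = 0.126), and in the deposited processed table TP53I3 probe b was at -2.13 (adjusted p = 0.653). On the 26 arrays 3 of 7 probes were called at 1 nM, where 0.931% of all probes were, and 5 of 7 at 10 nM, where 2.34% were. Those at 10 nM were TP53I3 probe a (-3.07 ± 0.64), TP53I3 probe b (-2.38 ± 0.43), TIGAR (-1.88 ± 0.19), SESN1 (-2.68 ± 0.32) and ABHD4 (-1.29 ± 0.33), and those at 1 nM were TP53I3 probe a, TIGAR and SESN1, joined by TP53I3 probe b with the replicate block (-1.68, adjusted p = 0.0364). With the slide as a fixed block on all arrays the 10 nM values were -2.37 for TP53I3 probe a, -2.20 for probe b, -1.66 for TIGAR, -2.25 for SESN1 and -1.19 for ABHD4, all called, and at 1 nM TP53I3 probe b, TIGAR and SESN1 were called.

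**Figure D3:**
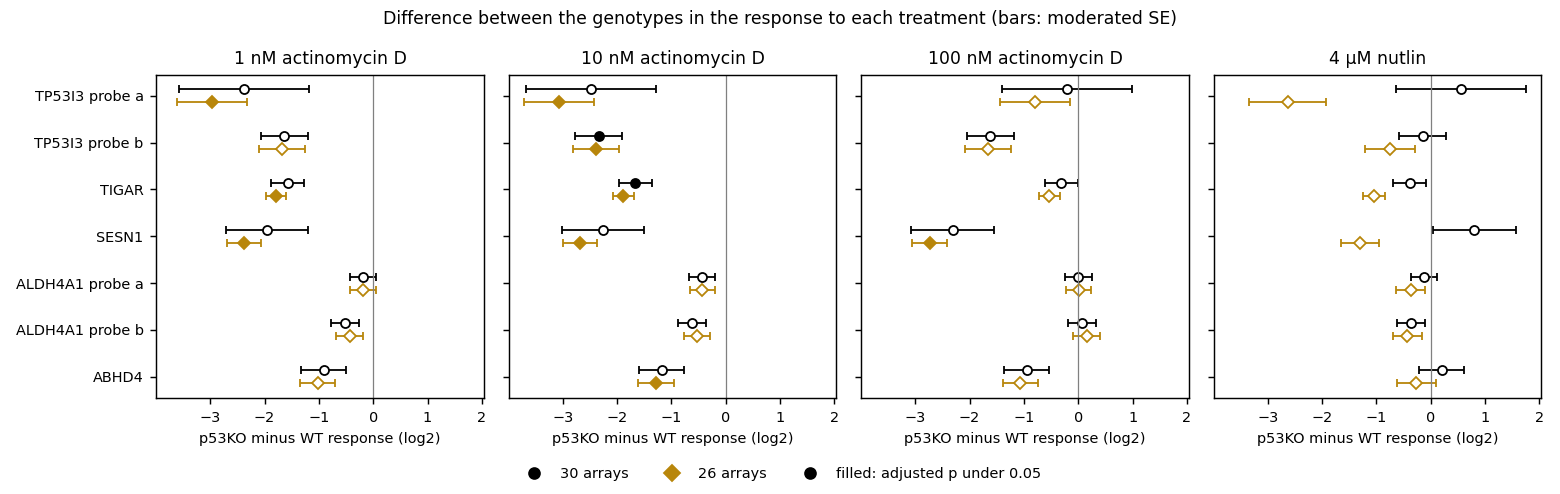
p53KO response minus WT response (x axis, log2) for each probe (y axis) and treatment (panels), with bars for the moderated SE. Black circles use all 30 arrays and gold diamonds the 26 arrays without the first untreated and the third nutlin arrays, and filled symbols have adjusted p under 0.05. At 10 nM 2 circles and 5 diamonds are filled.

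Set directly against WT cells of the same treatment, p53KO cells had lower TP53I3, TIGAR, SESN1 and ABHD4 at 1 and 10 nM actinomycin D. TP53I3 probe a differed by -4.29 ± 0.85 at 1 nM, 19.6-fold lower in p53KO cells (adjusted p = 0.00289), and by -4.40 ± 0.85 at 10 nM, 21.2-fold lower (adjusted p = 0.00118). SESN1 followed with -3.46 ± 0.53 and -3.76 ± 0.53 (adjusted p = 0.000584 and 7.69e-05), or 11.0-fold and 13.6-fold lower. TIGAR differed by -1.44 ± 0.22 and -1.53 ± 0.22 (adjusted p = 0.000511 and 7.5e-05) and ABHD4 by -1.21 ± 0.29 and -1.47 ± 0.29 (adjusted p = 0.00977 and 0.00146). TP53I3 probe b was not detected in p53KO cells at these doses and was at least 2.85-fold lower at 1 nM and at least 5.44-fold lower at 10 nM.

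For these probes the p53KO arrays did not overlap the WT arrays, a description only, as the share of all probes without overlap was not counted. 5 of 7 probes were called at each dose, all lower in p53KO cells, where 10.8% of all probes were called at 1 nM and 13.6% at 10 nM, with 5.69% and 7.29% lower. The 26 arrays gave 5 calls at each dose too, where 21.7% and 24.5% of all probes were called. The ALDH4A1 probes differed by -0.12 and -0.30 at 1 nM and by -0.37 and -0.39 at 10 nM and were not called. All 6 arrays at 1 nM shared a slide, so these differences hold within it, and with the slide as a fixed block the 10 nM values were -4.29 for TP53I3 probe a, -3.75 for SESN1 and -1.53 for TIGAR.

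Without treatment 0 of 7 probes were called between the genotypes, where 1.23% of all probes were (limma; 2 of 7 had an unadjusted p under 0.05). TP53I3 probe a was lower in p53KO cells by 1.92 ± 0.85 on the log2 scale (p53KO minus WT -1.92, adjusted p = 0.356) and SESN1 by 1.51 ± 0.53 (-1.51, adjusted p = 0.215), with no overlap between the arrays of the genotypes. SESN1 read 5.93 to 6.05 on untreated p53KO arrays, against 8.28, 7.33 and 6.89 on untreated WT arrays. SESN1 was called on the 26 arrays, at -1.08 ± 0.25 (adjusted p = 0.0129), where 3.33% of all probes were called, and the replicate block on those arrays also called TP53I3 probe a (-1.33, adjusted p = 0.00204). With the slide as a fixed block TP53I3 probe a and SESN1 were both called, at adjusted p = 0.00723 and 0.000198 with values of -1.92 and -1.51. TIGAR was at 0.13 ± 0.22 and ABHD4 at -0.30 ± 0.29.

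At 100 nM actinomycin D the members split. TP53I3 probe a and TIGAR in WT cells fell below their 10 nM levels, ALDH4A1 and ABHD4 read higher than in untreated cells of both genotypes after quantile normalisation, and SESN1 was no longer detected in p53KO cells. At this dose 65.7% of all probes were called in p53KO cells and 65.4% in WT cells, so the members' counts below lie near that background. Without quantile normalisation the median of all probes fell by 0.65 in p53KO cells and by 0.75 in WT cells against untreated cells. Against 10 nM, 5 of 7 member probes were called in p53KO cells (3 higher, 2 lower), where 64.3% of all probes were (32.6% higher, 31.7% lower), and 6 of 7 in WT cells (3 higher, 3 lower), where 64.1% were (32.4% higher, 31.7% lower).

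TIGAR read 7.45, 7.34 and 7.73 at 100 nM in WT cells, below all 10 nM arrays and overlapping the untreated ones. Against 10 nM it fell by 2.33 ± 0.22 in WT cells (adjusted p = 1.22e-09) and by 0.98 ± 0.22 in p53KO cells (adjusted p = 0.000313). TP53I3 probe a read 8.56, 9.13 and 10.21 in WT cells at 100 nM and fell by 2.68 ± 0.85 against 10 nM (adjusted p = 0.00771). Probe b read 5.79, 6.27 and 7.07 in WT cells at 100 nM, overlapping its 10 nM arrays, and fell by 0.82 ± 0.30 (adjusted p = 0.021), a call lost in the deposited processed table (-1.04, adjusted p = 0.228). SESN1 read 7.78, 8.22 and 8.98, a difference of -1.17 ± 0.53 against 10 nM (adjusted p = 0.0574), and fell by 1.17 ± 0.20 on the 26 arrays (adjusted p = 2.26e-05). Relative to the median of all probes, without quantile normalisation, the differences against 10 nM in WT cells were -2.85 for TIGAR, -2.84 for TP53I3 probe a and -1.60 for SESN1, in the same direction. With the slide as a fixed block they were -2.34, -2.79 and -1.19 on the quantile-normalised levels.

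ALDH4A1 probe a read 8.43, 8.25 and 8.73 at 100 nM in p53KO cells, against 7.24, 7.31 and 7.39 untreated, and 8.25, 8.51 and 8.45 at 100 nM in WT cells, against 7.17, 7.40 and 7.18 untreated. On quantile-normalised levels it was higher by 1.16 ± 0.17 in p53KO and 1.15 ± 0.17 in WT cells, and without quantile normalisation it was at -0.03 and -0.12, so its direction turned. The raw signal averaged 186.2 ± 24.5 intensity units at 100 nM and 188.5 ± 31.4 untreated in p53KO cells, and 199.6 ± 17.0 and 213.7 ± 24.6 in WT cells (SD, n = 3 each). Relative to the median of all probes it was at 0.62 in p53KO and 0.63 in WT cells, and probe b at 0.82 and 0.77. Probe b was at 1.42 ± 0.18 and 1.35 ± 0.18 with quantile normalisation and at 0.18 and 0.02 without.

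ABHD4 read 6.20, 7.05 and 6.33 at 100 nM in p53KO cells and 7.29, 7.89 and 8.15 in WT cells, above all untreated arrays of the same genotype. Its change against untreated cells was 1.16 ± 0.29 in p53KO cells (adjusted p = 0.00118) and 2.11 ± 0.29 in WT cells (adjusted p = 8.24e-07). Without quantile normalisation these were 0.08 (adjusted p = 0.825) and 0.85 (adjusted p = 0.00986), or 0.73 and 1.60 above the median of all probes. Its difference from 10 nM turned with the scaling: 1.10 in p53KO and 0.88 in WT cells with quantile normalisation, and -0.27 and -0.53 without.

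**Figure D4:**
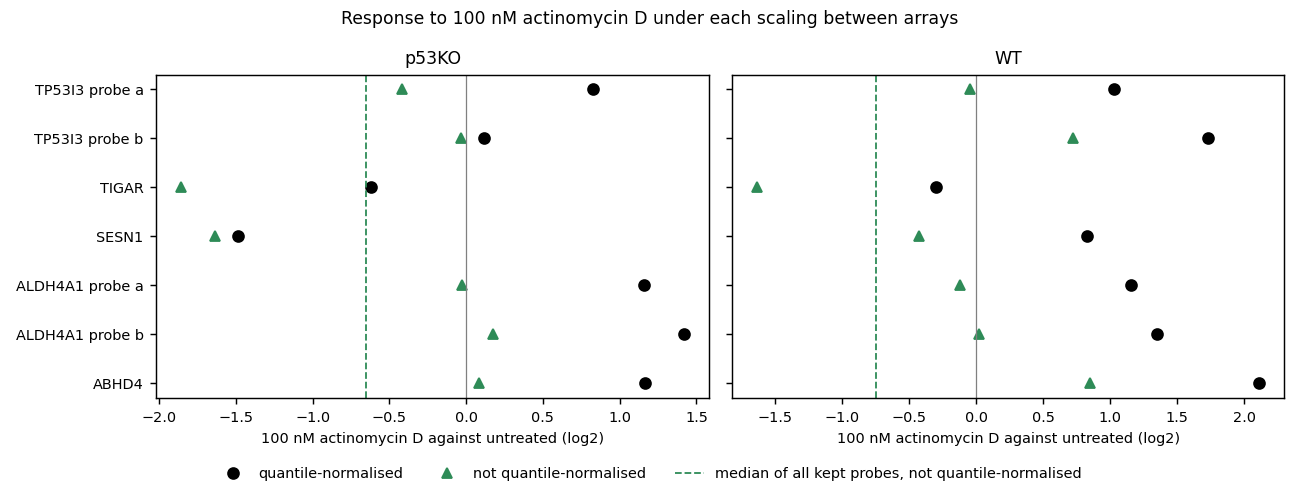
Log2 change at 100 nM actinomycin D against untreated cells (x axis) for each probe (y axis), in p53KO cells on the left and WT cells on the right. Black circles are quantile-normalised, green triangles are not, and the dashed line is the median of all kept probes without that step (-0.65 in p53KO, -0.75 in WT). Both ALDH4A1 probes lie over 1 on the first scale and between -0.12 and 0.18 on the second.

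Against untreated cells at 100 nM, 5 of 7 probes were called in p53KO cells (3 higher, 2 lower), where 34.4% of all probes were higher and 31.3% lower, and 4 of 7 in WT cells, all higher, where 34.0% were higher. In p53KO cells TIGAR fell by 0.62 ± 0.22 (adjusted p = 0.0146) and SESN1 was not detected on any array, at least 1.57-fold lower (adjusted p = 0.0173). In WT cells TIGAR was at -0.30 ± 0.22, SESN1 at 0.83 ± 0.53 and TP53I3 probe a at 1.03 ± 0.85, none called (without quantile normalisation TIGAR was called at -1.64, and SESN1 and TP53I3 probe a turned to -0.43 and -0.05), while TP53I3 probe b was at least 3.09-fold higher (adjusted p = 2.42e-05). The p53KO minus WT response was called for 0 of 7 probes, where 0.240% of all probes were called (limma; 3 of 7 had an unadjusted p under 0.05), and on the 26 arrays for SESN1 (-2.74 ± 0.32, adjusted p = 1.8e-05). The 26 arrays gave 5 calls in p53KO cells, where 68.6% of all probes were called, and 6 in WT cells, where 68.1% were.

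Set against WT cells at 100 nM, 3 of 7 probes were called, all lower in p53KO cells, where 3.68% of all probes were called and 2.07% were lower. SESN1 was at least 7.92-fold lower (adjusted p = 5.6e-05), TP53I3 probe b at least 2.05-fold lower (adjusted p = 0.000524) and ABHD4 lower by 2.38-fold (-1.25 ± 0.29, adjusted p = 0.0127). TP53I3 probe a differed by -2.12 ± 0.85 and was not called (adjusted p = 0.201), with p53KO arrays at 6.90 to 7.62 and WT arrays at 8.56 to 10.21, and the slide as a fixed block called it (-2.23, adjusted p = 0.00345). TIGAR, at -0.18 ± 0.22, overlapped between the genotypes. TP53I3 probe b was not called without quantile normalisation (-1.03, adjusted p = 0.102), and ABHD4 lost its call when any of 4 single arrays was left out, at adjusted p up to 0.0735.

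With all arrays as labelled, 4 µM nutlin gave no called change. In p53KO cells 0 of 7 probes were called, where 0.0465% of all probes were, and in WT cells 0 of 7, where 0.225% were (limma; 1 of 7 and 2 of 7 had an unadjusted p under 0.05). TP53I3 probe a read 6.28, 6.88 and 10.70 in p53KO cells and 10.19, 10.89 and 6.85 in WT cells. The third array of each genotype lay with the other genotype, as it did for PROM1. SESN1 read 5.84, 6.08 and 8.53 in p53KO cells and 8.46, 8.23 and 5.86 in WT cells, and TIGAR 7.99, 8.05 and 9.03 in p53KO cells and 8.72, 8.71 and 8.40 in WT cells. ABHD4 read 5.04, 5.16 and 5.21 in p53KO cells and 5.52, 5.58 and 4.58 in WT cells. In WT cells all 7 probes had their lowest nutlin reading on the third array.

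Over the 26 arrays, 3 of 7 probes were called for nutlin in WT cells, where 2.23% of all were. TP53I3 probe a was higher than in untreated cells by 2.73 ± 0.50 (adjusted p = 0.00619), TIGAR by 1.18 ± 0.15 (adjusted p = 0.00012) and SESN1 by 1.23 ± 0.25 (adjusted p = 0.0112). Nutlin and untreated arrays shared no slide among these 26, so the slide and the drug cannot be told apart there. ABHD4 was at 0.25 ± 0.25 and the ALDH4A1 probes at 0.56 ± 0.18 and 0.30 ± 0.19, none called. In p53KO cells the values were 0.09 for TP53I3 probe a, 0.13 for TIGAR and -0.07 for SESN1, 0 of 7 called where 0.0310% of all were (limma; 0 of 7 had an unadjusted p under 0.05). The test of p53KO minus WT response still called 0 of 7, as 0 of all probes (limma; 3 of 7 had an unadjusted p under 0.05), with TP53I3 probe a at -2.63 ± 0.71 (adjusted p = 0.503), TIGAR at -1.05 ± 0.21 (adjusted p = 0.143) and SESN1 at -1.30 ± 0.35 (adjusted p = 0.503). With all arrays that test called 0 of 7 and 0 of all probes, with TP53I3 probe a at 0.56 and SESN1 at 0.81, the opposite sign (0 of 7 had an unadjusted p under 0.05). The replicate block on the 26 arrays called 1 of 7 in that test, TP53I3 probe a (adjusted p = 0.00432), and 5 of 7 for nutlin in WT cells, adding TP53I3 probe b (0.99, adjusted p = 0.0361) and ALDH4A1 probe a (0.72, adjusted p = 0.00773). That block joins arrays by replicate number, and over all arrays the nutlin deviations of the genotypes correlated by number at only -0.406 to 0.033.

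Only slide 2 held both nutlin and untreated arrays, with 1 untreated array of each genotype, the first, which is among the 4 left out elsewhere. The slide as a fixed block on all arrays therefore rests on those single arrays, and gave 4 calls in WT cells: 1.94 ± 0.58 for TP53I3 probe a (adjusted p = 0.0221), 0.58 ± 0.18 for TIGAR (adjusted p = 0.0295), and ALDH4A1 probes a and b (adjusted p = 0.0184 and 0.0131). SESN1 was at 0.49 ± 0.31 with that block and was not called (adjusted p = 0.316). In p53KO cells the same block gave 1, ABHD4 at -0.87 ± 0.28 (adjusted p = 0.0318), where that untreated array read 5.86 and the other untreated arrays 5.15 and 5.09. The share of all probes called with the slide as a fixed block is not given.

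Between the genotypes under nutlin, 0 of 7 probes and 0 of all probes were called with all arrays (limma; 0 of 7 had an unadjusted p under 0.05), and 3 of 7 on the 26 arrays, where 12.9% were called. Those called were TP53I3 probe a at -3.96 ± 0.50, SESN1 at -2.38 ± 0.25 and TIGAR at -0.69 ± 0.15 (p53KO minus WT, adjusted p = 1.27e-05, 7.33e-07 and 0.00358), and the replicate block added TP53I3 probe b (-0.91, adjusted p = 0.0418).

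The drugs were also set side by side in WT cells. 10 nM actinomycin D gave higher levels than nutlin for 5 of 7 probes, where 26.3% of all probes were called and 13.4% were higher, with TP53I3 probe a 2.67 ± 0.85 higher (adjusted p = 0.0209), SESN1 1.99 ± 0.53, ABHD4 1.67 ± 0.29 and TIGAR 1.23 ± 0.22. Over the 26 arrays these were 1.44 ± 0.46, 1.16 ± 0.22, 1.35 ± 0.23 and 1.12 ± 0.13, and 5 of 7 were called, where 30.7% were. At 1 nM 3 of 7 were called, all higher, where 3.13% of all were called and 1.26% were higher: TP53I3 probe b (1.22 ± 0.30), TIGAR (0.94 ± 0.22) and ABHD4 (1.11 ± 0.29). On the 26 arrays 3 of 7 were called, where 6.43% were, and TP53I3 probe a was at 0.59 ± 0.46 and SESN1 at 0.66 ± 0.22 between 1 nM and nutlin, neither called. Neither the 1 nM nor the 10 nM arrays shared a slide with the nutlin arrays. With the slide as a random block 0 of 7 were called at 1 nM, and 3 of 7 at 10 nM, where TP53I3 probe a and SESN1 lost their calls (adjusted p = 0.149 and 0.0673).

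The 10 groups can be ordered by their mean level for each gene. TP53I3 probe a ran from 11.98 ± 0.37 in WT cells at 10 nM and 11.13 ± 0.96 at 1 nM, through WT nutlin (9.31 ± 2.16), WT 100 nM (9.30 ± 0.84) and WT untreated (8.27 ± 0.80), to p53KO nutlin (7.95 ± 2.40), p53KO 10 nM (7.58 ± 0.37), 100 nM (7.18 ± 0.38), 1 nM (6.84 ± 0.54) and untreated (6.35 ± 0.23; SD, n = 3 each). Every neighbouring pair in that order overlapped. The nutlin means hold the third arrays, and without them were 6.58 in p53KO cells, below the means of all 3 actinomycin D doses, and 10.54 in WT cells. TIGAR was highest in WT cells at 10 nM (9.84 ± 0.14) and 1 nM (9.55 ± 0.24), which overlapped each other and stood clear of the next group, WT nutlin (8.61 ± 0.18), and it was lowest at 100 nM in WT (7.51 ± 0.20) and p53KO cells (7.33 ± 0.08). SESN1 at 10 nM in WT cells (9.50 ± 0.05) stood clear of 1 nM, the next group, and p53KO cells at 100 nM (4.51 ± 0.09) stood below every other group. ABHD4 was highest in WT cells at 100 nM (7.78 ± 0.44), which did not overlap the next, WT 10 nM (6.90 ± 0.05), on quantile-normalised levels. ALDH4A1 probe a was highest at 100 nM in p53KO (8.47 ± 0.24) and WT cells (8.40 ± 0.14), and the other 8 groups lay between 7.12 and 7.80, each overlapping its neighbour.

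Among the members, levels of TP53I3 probe a over the 30 arrays went with those of SESN1 (Pearson r = 0.90) and TIGAR (0.77), less with ABHD4 (0.53) and least with the ALDH4A1 probes (0.11 and 0.08). The arrays share genotype, dose and slide, so these are descriptions. The 2 probes of TP53I3 had r = 0.89 and those of ALDH4A1 r = 0.84. TIGAR and ALDH4A1 probe a ran in opposite directions (-0.37). Over the 26 arrays the same values were 0.90, 0.78, 0.56, 0.06, 0.06, 0.91, 0.89 and -0.43.

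Among all other genes, those whose levels were most like each member over the 30 arrays (Pearson r, highest 3) were CEACAM1 (0.97), COQ8A (0.96) and PTGES (0.96) for TP53I3, an adhesion molecule, a protein of coenzyme Q synthesis and a prostaglandin E synthase. For TIGAR they were MDM2 (0.94), the inhibitor of p53, FBXO22 (0.94) and the pseudogene RPL23AP82 (0.93). For SESN1 they were DSC3 (0.96), a desmosomal cadherin, DDB2 (0.94), a DNA damage binding protein, and APOBEC3H (0.94). For ALDH4A1 they were ECHS1 (0.94), a mitochondrial enzyme of fatty acid oxidation, MXRA7 (0.93) and TCTN1 (0.93). For ABHD4 they were LRATD2 (0.96), CRACR2B (0.95) and PPT2 (0.94). On the 26 arrays the lowest of these 15 values was 0.93 and the highest 0.98.

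Other metabolic and redox genes reported as induced by p53 were followed as a list of 28, of which 25 had a probe past the filter. In WT cells 6 rose and 1 fell at 1 nM, where 4.00% of all probes rose and 4.85% fell. At 10 nM 10 rose and 1 fell, where 15.4% of all probes rose and 14.6% fell. The list medians were 0.38 and 0.48 against 0.02 and 0.04 over all probes. The ones that rose most at 10 nM were TP53INP1, an autophagy and stress gene (2.28 ± 0.74), PRKAB2 (1.75 ± 0.22) and PRKAB1 (1.56 ± 0.26), both subunits of AMP-activated kinase, and RRM2B (1.44 ± 0.31), a subunit of ribonucleotide reductase. In p53KO cells 0 of 25 were called at 1 nM, where 0.682% of all probes were (limma; 4 had an unadjusted p under 0.05). At 10 nM 3 rose, where 10.1% of all probes did, among them PRKAB2 (1.04 ± 0.22), and 1 fell, where 10.5% did: LPIN1, a lipid phosphatase, by 1.01 ± 0.20 (-1.01). Without quantile normalisation the 1 nM WT count was 1 risen and 0 fallen, and the 10 nM p53KO count 9 and 0. No share of all probes is given there. Without that step the median of all probes also moved at 10 nM in p53KO cells. On the 26 arrays the 10 nM p53KO count was 8 and 3, where 27.4% of all probes were called in either direction.

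p53KO cells had lower levels than WT cells for 13 of these 25 genes at 1 nM and 14 at 10 nM, where 5.69% and 7.29% of all probes were lower. Higher levels were called for 0 at both doses, and the list medians were -0.78 and -0.81. TP53INP1 was at -4.27 ± 0.74 and -4.31 ± 0.74, ABCA1, a cholesterol exporter, at -2.88 ± 0.51 and -2.77 ± 0.51, and RRM2B at -2.19 ± 0.31 at 1 nM. SESN2, another sestrin, was at -1.61 ± 0.41 at 1 nM, and PRODH, which starts the proline breakdown that ALDH4A1 completes, at -1.86 ± 0.38 at 10 nM. Without treatment 0 of 25 were called between the genotypes, where 1.23% of all probes were (limma; 9 had an unadjusted p under 0.05), and 5 were lower on the 26 arrays, where 3.33% of all probes were called. Over the 26 arrays the WT counts were 11 risen at 1 nM and 15 at 10 nM, where 16.6% and 38.7% of all probes were called in either direction. Those lower in p53KO cells were 15 and 16, where 21.7% and 24.5% of all probes were called in either direction.

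Of 11 core p53 targets 10 were measured, and all 10 were lower in p53KO than in WT cells at 1 and at 10 nM, where 5.69% and 7.29% of all probes were. Their medians were -1.96 and -2.09, with GDF15 (-4.36 and -4.62) and CDKN1A (-3.48 and -3.36), the cell cycle inhibitor, lower the most. In WT cells 4 of 10 rose at 1 nM and 5 at 10 nM, where 4.00% and 15.4% of all probes did, with MDM2 at 2.22 ± 0.47 and 2.35 ± 0.47. On the 26 arrays 10 and 9 rose, where 16.6% and 38.7% of all probes were called in either direction. In p53KO cells 0 of 10 were called at either dose, where 0.682% and 20.7% of all probes were (limma; 0 had an unadjusted p under 0.05). On the 26 arrays 1 rose and 1 fell at 10 nM, where 27.4% of all probes were called (limma; 5 of 10 had an unadjusted p under 0.05). Without quantile normalisation 2 rose at 10 nM in p53KO cells, where no share of all probes is given and the median of all probes also moved.

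Of 13 metabolic genes reported as repressed by p53, 10 were measured. In WT cells at 10 nM 5 fell and 2 rose, with a median of -0.50, where 14.6% of all probes fell and 15.4% rose (3 fell and 2 rose without quantile normalisation). PHGDH, the entry enzyme of serine synthesis, fell by 1.60 ± 0.19 and SLC7A11, the cystine transporter, by 1.22 ± 0.29, while the glucose transporters SLC2A3 and SLC2A1 rose by 2.37 ± 0.45 and 1.42 ± 0.31. In p53KO cells PHGDH also fell, by 0.64 ± 0.19 (adjusted p = 0.0163, a call lost without quantile normalisation), and SLC2A3 also rose, by 1.93 ± 0.45. PHGDH was lower in p53KO than in WT cells without treatment (-0.85 ± 0.19, adjusted p = 0.0251), and on the 26 arrays the list had 2 calls there, both higher, where 3.33% of all probes were called. p53KO cells had SLC2A3 higher than WT cells at both doses, by 2.47 ± 0.45 and 1.61 ± 0.45. It was higher in untreated p53KO cells too (2.05 ± 0.45). At both doses 0 of the other 9 genes were called, where 10.8% and 13.6% of all probes were, so 1 call of 10 lies near that background. On the 26 arrays 1 of 10 was higher at 1 nM and 2 at 10 nM, and 0 were lower, where 21.7% and 24.5% of all probes were called. Of 24 partners and homologues of the members, 20 were measured, and in WT cells at 10 nM 4 rose and 2 fell, with a median of 0.04, near the 15.4% and 14.6% of all probes. PYCR1 and PYCR3, which make proline, fell by 0.97 ± 0.17 and 1.48 ± 0.38, and OAT, which feeds ornithine towards proline and glutamate, rose by 0.72 ± 0.13. PYCR1 fell in p53KO cells too, by 0.79 ± 0.17, and OAT rose by 0.78 ± 0.13, and between the genotypes at 10 nM 2 genes, WDR24 and WDR59 of the GATOR2 complex that sestrins bind, were lower in p53KO cells, by 0.57 ± 0.17 (-0.57) and 0.53 ± 0.14 (-0.53) on the log2 scale, 2 of 20 where 7.29% of all probes were lower.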

How the data were processed

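The average bead signal was deposited by the authors as a linear intensity, with a detection p-value, a bead count and a bead error per probe and array, per the file headers. BeadStudio is named in the submitters' processing notes, and no version of it is stated there. A second deposited table of processed intensities and the series matrix hold the same values, which tied each probe to its annotation. 104 columns per table (26 arrays of other samples) were not used. Member probes had 27 to 63 beads and a median bead error of 3.38% to 4.44%.

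Intensities were background-corrected (neqc, offset 16), quantile-normalised and put on the log2 scale with limma 3.58.1 in R 4.3.3. All 30 arrays entered 1 model with a mean per group (20 residual degrees of freedom, 23 contrasts), tested by moderated statistics with Benjamini-Hochberg adjustment over 12896 probes. The fit was checked on simulated levels. A probe not detected on any array of a group has its fold as a bound. Members and lists were chosen with earlier results of these data known. The rule named every member probe, the 3 genes most like each member and up to 4 called genes per list and contrast. PROM1, outside it, was chosen after its values were seen. Of the array's probes 21101 had 1 gene symbol, 1076 none and 0 several, and 20986 symbols were updated through gene IDs. Some items are not reported here.

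Replicate numbers come from the labels' titles. Deviations of p53KO and WT arrays of the same number correlated at 0.589 to 0.773 in untreated cells, 0.391 to 0.512 at 1 nM, 0.353 to 0.42 at 10 nM and 0.228 to 0.462 at 100 nM, but at -0.406 to 0.033 for nutlin. For tests between the genotypes the replicate block paired these arrays, nutlin included. For tests within a genotype it joined arrays of the same number across treatments. In WT cells such deviations correlated at -0.168 to 0.0442 for untreated with 1 nM, 0.0202 to 0.144 for untreated with 10 nM and 0.324 to 0.525 for 10 with 1 nM. Alternatives covered scaling, filters, probes per gene, slides, the replicate block and left-out arrays.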

Additional observations from a re-analysis of the deposited data

Results flagged for a closer look

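The response to 10 nM actinomycin D differed between the genotypes for 2 of the 7 member probes by the test of the difference itself. TP53I3 probe b had a p53KO minus WT difference of -2.34 on the log2 scale, with p53KO levels of 4.59, 4.69 and 4.69 at 10 nM and WT levels of 6.96, 7.64 and 6.99. It was not detected in the p53KO or untreated groups of this test and passed the filter only through WT groups under actinomycin D, which favours the call. TIGAR had a difference of -1.66, with p53KO levels of 8.44, 8.28 and 8.22 and WT levels of 9.95, 9.68 and 9.90. Neither difference kept its call under every scaling.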

How the results depend on the processing

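No share of all probes called is given beside the counts of this section. Whether more member calls go with more calls over all probes is therefore not shown. Counts of called member probes (of 7) were within 1.5 times the main count for all 23 comparisons without background correction and with the replicate block alone, which changed 1 call among the values given (ALDH4A1 probe b at 10 nM in WT cells, 0.44) and no other. The replicate block without the 4 arrays gave 5 at 1 nM and 5 for nutlin in WT cells, 2 at 10 nM in p53KO cells, 4, 5, 1 and 1 for the p53KO minus WT responses to 1, 10 and 100 nM and nutlin, 2 and 4 for p53KO against WT untreated and under nutlin, and 3 for 10 against 1 nM in WT cells, and it turned TP53I3 probe a in the nutlin response to -2.63. Without the 4 arrays and with no block they were 5 (1 nM, WT), 3 (nutlin, WT), 1 (10 nM, p53KO), 3, 5 and 1 (responses to 1, 10 and 100 nM), 1 and 3 (untreated and nutlin, p53KO against WT) and 1 (10 against 1 nM, WT). Without the third nutlin arrays alone they were 2 (nutlin, WT), 1 (10 nM, p53KO), 3, 4 and 2 (responses to 1, 10 and 100 nM), 2 and 3 (untreated and nutlin, p53KO against WT), 1 (10 against 1 nM, WT) and 1 (1 nM against nutlin), and without the first untreated arrays 5 (1 nM, WT) and 1 (nutlin, WT).

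The slide as a fixed block gave 4 (nutlin, WT), 1 (nutlin, p53KO), 3, 5 and 2 (responses to 1, 10 and 100 nM), 2 (untreated) and 3 (nutlin) for p53KO against WT. As a random block it gave 1 (1 nM, WT), 1 (nutlin, WT), 1 and 1 (responses to 1 and 100 nM), 1 (untreated, p53KO against WT), 0 (1 nM against nutlin) and 3 (10 nM against nutlin). Without quantile normalisation the counts were 1 (10 nM, p53KO), 2 (100 nM, p53KO), 1 (response to 10 nM), 1 and 1 (10 against 1 nM, p53KO and WT) and 3 (100 against 10 nM, p53KO). There ALDH4A1 probe a at 100 nM turned to -0.028 in p53KO and -0.12 in WT cells, and against 10 nM ALDH4A1 probe a and ABHD4 turned to -0.17 and -0.27 in p53KO cells, and ALDH4A1 probes a and b and ABHD4 to -0.41, -0.50 and -0.53 in WT cells.

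With 1 probe per gene the counts were 2 (100 nM, WT) and 1 (response to 10 nM), on the deposited processed intensities 1 (response to 10 nM) and 1 (1 nM against nutlin), and with no detection filter 1 (1 nM against nutlin). Probes detected on all arrays, which leave fewer members, gave 2 and 2 (10 and 100 nM, WT), 3 (100 nM, p53KO), 1 (response to 10 nM), 2, 2 and 0 (p53KO against WT at 1, 10 and 100 nM), 3 (100 against 10 nM, p53KO), 1 and 2 (1 and 10 nM against nutlin). Fits of only the groups compared, with fewer samples, gave 2 (10 nM, p53KO), 4 (response to 10 nM), 1 (p53KO against WT at 100 nM), 2 (10 against 1 nM, WT), 0 and 3 (1 and 10 nM against nutlin). Except where stated, the cause was not tested.

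Leaving out 1 array gave 2 to 5 at 1 nM, 5 to 6 at 10 nM and 0 to 1 for nutlin in WT cells, 0 to 2 and 0 to 1 for the responses to 1 and 100 nM, 4 to 5 and 2 to 3 for p53KO against WT at 1 and 100 nM, 0 to 1 for 10 against 1 nM and 5 to 6 for 100 against 10 nM in WT cells, 4 for 100 against 10 nM in p53KO cells, and 0 to 3 and 3 to 5 for 1 and 10 nM against nutlin. Without the first untreated WT array the counts were 5 (1 nM), 1 (nutlin) and 1 (response to 1 nM). The other single arrays that moved a count by over 1.5 times, all WT, were the first at 1 nM (2, response to 1 nM), the first at 100 nM (1, response to 100 nM), the second at 1 nM (1, 10 against 1 nM), the second and the third at 1 nM and the third nutlin array (0 each, 1 nM against nutlin), and the third nutlin array again (3, 10 nM against nutlin). The counts of the gene lists under other scalings and on the 26 arrays were chosen after seeing the data. The 3 arrays a group and, for TP53I3 probe b, signals near background limit the precision.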
